A study of Homo sapiens with 6 samples.

Results

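Glycosaminoglycans are long sugar chains that cells build on core proteins or, for hyaluronan, release as free chains. The expression of 40 genes for their synthesis and sulfation was examined in U87 cells, a human glioblastoma cell line. The genes were chosen by name, with earlier results of these data known. They cover parts of synthesis: the linker, chain elongation, sulfation, the supply of precursors and hyaluronan synthesis. A probe set annotated with that single gene symbol was found for 38 of the 40, out of 11963 genes named on the array, and NDST2 and HAS3 are not analysed here. Of the 38, 30 had a mean log2 signal above a filter level equal to 13.0 signal units and were tested, among 7178 genes tested in all, and 8 lay below it.

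RNA was measured on 6 Affymetrix arrays, 1 per sample. Of these, 3 came from IRE1dn cells, which carry a dominant negative transgene of IRE1alpha, the endoplasmic reticulum stress sensor encoded by ERN1, and 3 from ctrl cells, which carry the empty plasmid. Both groups were grown for 16 h in medium with 10% serum, and the study asked which genes are tied to tumour invasion and to blood vessel formation. The labels name 1 clone for the IRE1dn cells and speak of clones in the plural for the ctrl cells, so IRE1dn and the choice of that clone cannot be told apart. Nothing in the labels says that the arrays of a group came from separate cultures. The p-values therefore set the difference between the groups against the spread among these arrays, which may be technical. They do not extend to other cultures or clones.

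Values are scaled linear signal intensities, with array medians between 18.4 and 21.0 units. Changes are IRE1dn minus ctrl on the scale log2(signal + 1.75), with their standard error (SE), and adjusted p-values are limma's over all 7178 genes, with a threshold of 0.05. Correlations between arrays were 0.976 to 0.984 within IRE1dn, 0.939 to 0.954 within ctrl and 0.841 to 0.886 between the groups. All 5 markers of a cultured glioblastoma line (VIM, CD44, NES, FN1 and CHI3L1) lay above the filter level, whereas the glial markers GFAP, S100B, OLIG2 and SOX2 lay below it, with summed signals of 8.59 to 11.5 in IRE1dn and 12.6 to 33.2 in ctrl. No neuronal, endothelial, leukocyte or epithelial marker with a probe set had a mean above the filter level. ERN1 itself lay below the filter level, at 9.887, 10.46 and 12.86 units in IRE1dn arrays 1, 2 and 3, and at 10.99, 13.97 and 11.86 in ctrl arrays 1, 2 and 3. Its single probe set need not detect the transgene, so it does not check the labels.

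A proteoglycan chain starts with xylose on a serine of the core protein. After a short linker has been built, the choice of the next sugar makes the chain heparan sulfate or chondroitin sulfate. Both are then sulfated in the Golgi with the activated sulfate donor PAPS, and epimerases turn part of the glucuronic acid into iduronic acid, which gives heparan sulfate its binding sites and turns chondroitin sulfate into dermatan sulfate. The sulfation pattern sets which growth factors, chemokines and matrix proteins a chain binds. Hyaluronan is made at the plasma membrane, without a core protein and without sulfate, and is abundant in brain matrix and in gliomas.

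Of the 30 enzymes tested, 5 passed the threshold, 3 higher in IRE1dn (CHSY1, NDST1 and PAPSS1) and 2 lower (UST and CHST11). Those 5 are 16.7% of the enzymes tested, whereas 34.4% of all genes tested passed, 17.9% higher and 16.5% lower in IRE1dn. In RNA from whole cultures, fewer cells expressing a gene and less RNA per cell cannot be told apart. At an unadjusted limma p under 0.05, 6 enzymes were higher and 2 lower, beside 1720 higher and 1584 lower among the 7178 genes tested. The median log2 change was 0.03 over the 30 enzymes and 0.01 over all genes tested, and the median absolute change was 0.35 for the enzymes and 0.46 for all genes. In value, 15 enzymes were higher and 15 lower in IRE1dn. The groups did not overlap for 10 of the 30 enzymes, and for 50.2% of all genes tested. IRE1dn lay above for CHSY1, NDST1, PAPSS1, PAPSS2, CHST3, DSE and HS2ST1, and below for UST, CHST11 and CHST7.

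**Figure D1:**
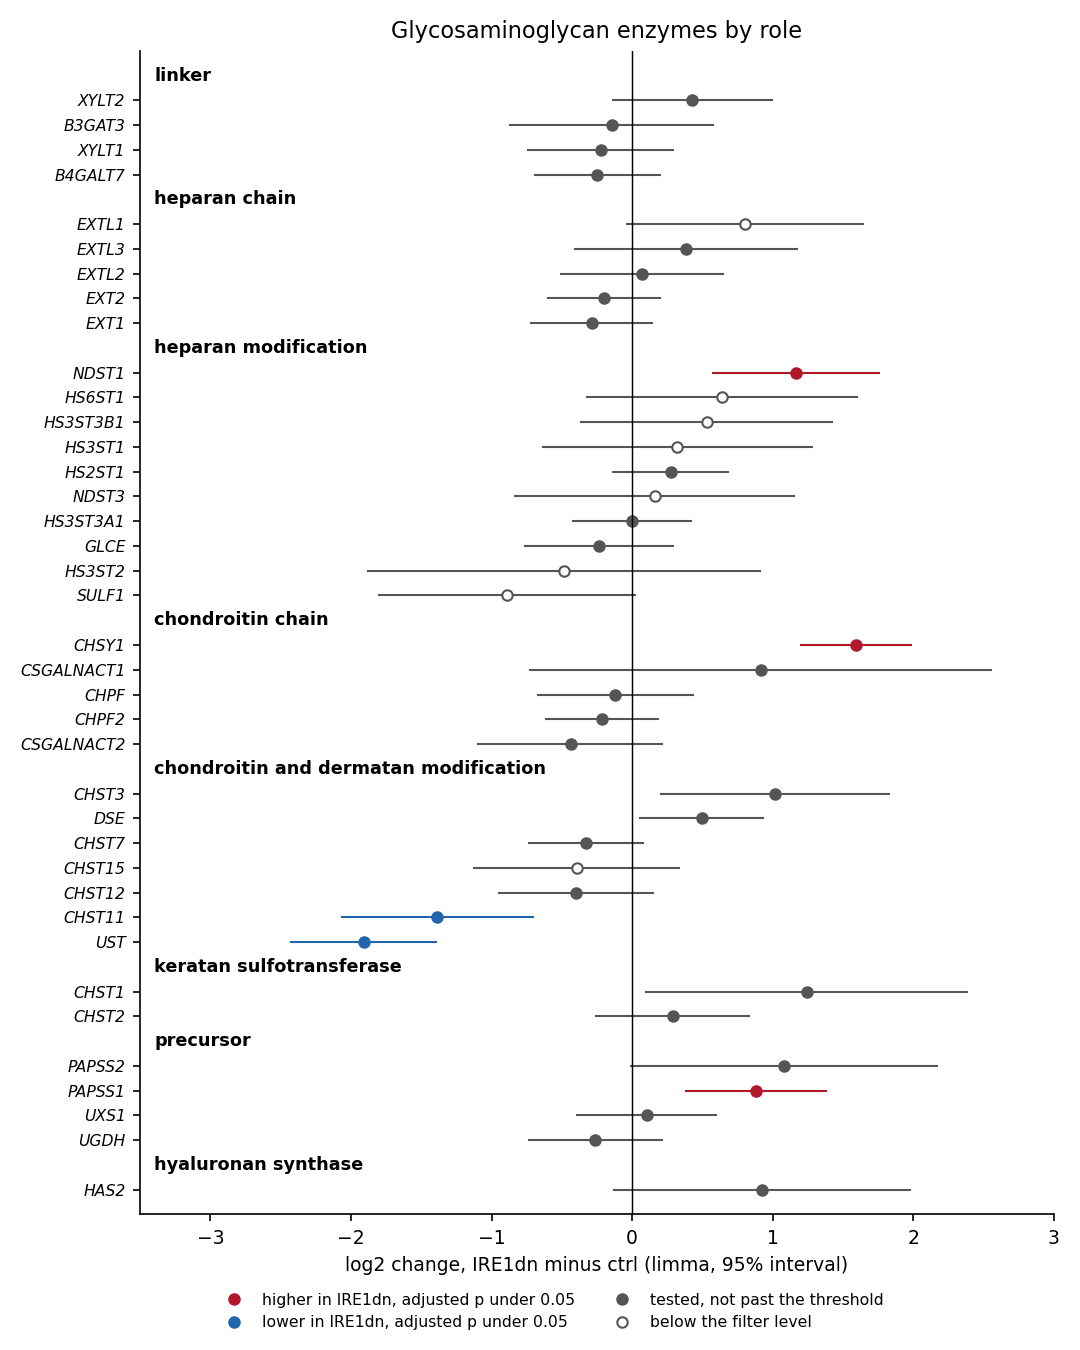
Log2 change, IRE1dn minus ctrl (horizontal axis), of the 38 enzymes with a probe set, grouped by role, with the 95% interval from limma over 3 arrays per group. Red and blue points passed the threshold (3 higher and 2 lower in IRE1dn), filled grey points were tested and did not, and the 8 open points lay below the filter level and come from a fit without the filter.

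The largest increase was that of CHSY1, chondroitin synthase, which lengthens the chondroitin chain by adding its alternating sugars. It had 695.5, 639 and 724 units in IRE1dn arrays 1, 2 and 3, and 193, 274 and 218 units in ctrl arrays 1, 2 and 3. Every IRE1dn array lay above every ctrl array, and the gap between the groups was wider than the range within either. The mean was 686 ± 43.3 units in IRE1dn and 228 ± 41.6 in ctrl (SD, n = 3 each), or a log2 change of 1.59 (SE 0.17; 95% interval 1.21 to 1.98; limma adjusted p = 0.00028). CHSY1 passed the threshold in all 17 alternative settings, with changes of 1.47 to 1.73.

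The promoters of CHSY1 and, further on, UST are shown because they were the most increased and the most decreased of the tested enzymes. Total XBP1 transcript, whose splicing by IRE1alpha makes an active transcription factor, was itself lower, at 113, 125 and 130 units in IRE1dn against 265, 229 and 203 in ctrl (log2 change -0.90, SE 0.18; limma adjusted p = 0.0045). The promoters were searched on both strands for ACGTG, letters shared by sites that XBP1 is known to bind. The search also covered the longer motifs CACGTG and TGACGTG, which contain those letters. The endoplasmic reticulum stress element, CCAAT and CCACG at a fixed distance, was searched for too. The 250 bases before the CHSY1 start, chr15:101252049-101252298 on the minus strand of GRCh38.p14 from RefSeq, hold a single CACGTG that begins 17 bases upstream of the start, shown in capitals. It holds ACGTG on each strand, and those matches overlap.
CHSY1: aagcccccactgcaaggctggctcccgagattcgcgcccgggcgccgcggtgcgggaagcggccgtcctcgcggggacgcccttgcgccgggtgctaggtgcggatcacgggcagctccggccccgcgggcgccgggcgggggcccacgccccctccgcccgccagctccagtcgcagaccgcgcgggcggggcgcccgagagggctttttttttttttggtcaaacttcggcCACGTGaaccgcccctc
ACGTG occurs in 18.5% of 35116 RefSeq promoters of this length and in 22.8% of the 9070 promoters of genes tested. Among the 42 promoters listed for 31 of the enzymes with a probe set, 6 hold it, or 14.3%. CACGTG occurs in 6.34% of all promoters, in 8.54% of those of genes tested and in 3 of the 42, or 7.14%. The stress element occurs in 0.074% of all promoters, in 0.143% of those of genes tested and in 0 of the 42. NDST1, CHST11 and PAPSS1 hold no ACGTG in this window, and none of the 5 enzymes past the threshold holds TGACGTG, which occurs in 1.68% of all promoters and 2.30% of those of genes tested. A match is only a description of the letters.

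Other enzymes of the chondroitin chain did not pass. CHPF and CHPF2, partners of the synthase, changed by -0.12 (adjusted p = 0.74) and -0.21 (0.37) in limma. CSGALNACT2, which adds the first N-acetylgalactosamine and so commits a linker to chondroitin, changed by -0.44 (SE 0.29; limma adjusted p = 0.27). Its 3 IRE1dn arrays had 156, 105 and 113 units, against 104, 205 and 219 in ctrl, where array 1 lay below the other two. Without ctrl array 1 the change was -0.78 (limma adjusted p = 0.024). CSGALNACT1, which does the same step, had 32.6, 33.0 and 34.1 units in IRE1dn, against 7.81, 6.21 and 81.8 in ctrl. IRE1dn arrays were close to each other and lay between ctrl array 3 and the other two ctrl arrays, both of which lay under the filter level. Over all arrays CSGALNACT1 changed by 0.92 (SE 0.73; limma adjusted p = 0.36), and without ctrl array 3 by 2.00 (0.00056). Without ctrl array 1 or 2 it changed by 0.44 or 0.31.

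Enzymes that modify the chondroitin and dermatan chain held both decreases. UST, which sulfates the uronic acid at position 2, had 16.93, 17.01 and 14.47 units in IRE1dn arrays 1, 2 and 3, against 56.6, 80.2 and 61.6 in ctrl arrays 1, 2 and 3. All IRE1dn arrays lay just over the filter level and far below the lowest ctrl array. The mean was 16.1 ± 1.45 units in IRE1dn and 66.1 ± 12.5 in ctrl (SD, n = 3 each), or a log2 change of -1.91 (SE 0.23; 95% interval -2.43 to -1.39; limma adjusted p = 0.00043). A second, dimmer probe set had 0.438, 0.353 and 0.639 units in IRE1dn and 15.0, 14.8 and 11.1 in ctrl, so it was lower in IRE1dn too. UST passed in all 16 alternatives that tested it, and with a pseudocount of 16 its change was -1.34. The 250 bases before the UST start, chr6:148746780-148747029 on the plus strand of GRCh38.p14 from RefSeq, hold 1 ACGTG, in capitals, which begins 168 bases upstream of the start.
UST: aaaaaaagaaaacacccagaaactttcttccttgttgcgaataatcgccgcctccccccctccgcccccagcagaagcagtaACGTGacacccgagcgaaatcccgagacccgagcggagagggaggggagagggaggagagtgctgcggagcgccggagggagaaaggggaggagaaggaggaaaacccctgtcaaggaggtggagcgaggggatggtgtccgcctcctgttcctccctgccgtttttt

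CHST11, which sulfates chondroitin at position 4 of N-acetylgalactosamine, had 21.4, 24.5 and 13.5 units in IRE1dn arrays 1, 2 and 3, against 49.3, 74.8 and 40.5 in ctrl arrays 1, 2 and 3. The groups did not overlap, and IRE1dn array 3 lay close to the filter level. CHST11 averaged 19.8 ± 5.66 units in IRE1dn and 54.9 ± 17.8 in ctrl (SD, n = 3 each), or a log2 change of -1.39 (SE 0.30; 95% interval -2.06 to -0.71; limma adjusted p = 0.0076). It passed in all 16 alternatives that tested it, with a change of -0.97 at a pseudocount of 16. CHST12, which sulfates the same position, changed by -0.40 (SE 0.25; limma adjusted p = 0.23), with overlapping groups.

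The sulfotransferases of position 6, CHST3 and CHST7, pointed in opposite directions and neither passed. CHST3 had 65.4, 53.9 and 49.2 units in IRE1dn, against 26.7, 14.7 and 47.6 in ctrl, so the groups parted by a narrow margin at ctrl array 3. Its change was 1.02 (SE 0.36; 95% interval 0.21 to 1.83; limma adjusted p = 0.054), and all 3 of its probe sets were higher in IRE1dn in value. CHST3 passed with a pseudocount of 16, with the mean of its probe sets, with array weights and without ctrl array 3 (limma adjusted p of 0.0477, 0.0401, 0.0137 and 0.00474). CHST7 had 61.8, 71.1 and 73.6 units in IRE1dn and 88.5, 88.1 and 82.9 in ctrl. Its IRE1dn arrays all lay lower, with a change of -0.33 (SE 0.18; limma adjusted p = 0.19).

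DSE, the epimerase that turns chondroitin into dermatan, had 374, 354 and 349 units in IRE1dn arrays, against 289.5, 294.5 and 193 in ctrl arrays. The IRE1dn arrays lay above all ctrl arrays, and ctrl array 3 was the lowest. The mean was 359 ± 12.9 units in IRE1dn and 259 ± 57.4 in ctrl (SD, n = 3 each), a change of 0.49 (SE 0.19; 95% interval 0.06 to 0.93; limma adjusted p = 0.074). DSE passed in none of its 17 alternatives, where the limma adjusted p ran from 0.053 to 0.18. CHST15, which adds a second sulfate to units already sulfated at position 4, had 0.333 to 1.91 units in IRE1dn and 1.18 to 2.56 in ctrl, all below the filter level.

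**Figure D2:**
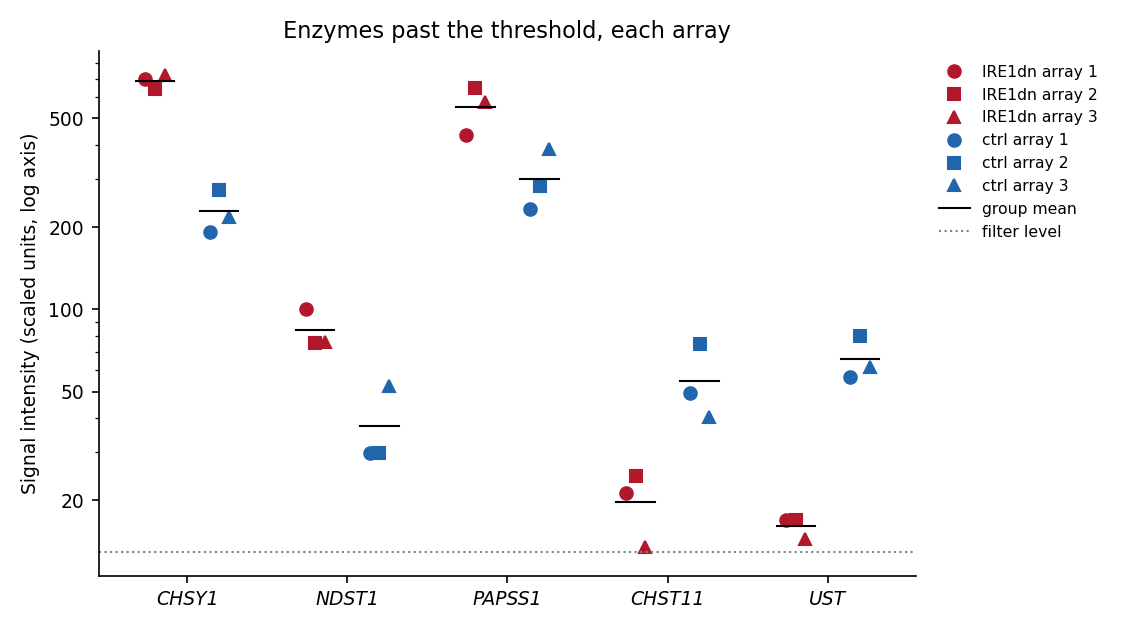
Signal intensity (vertical log axis, scaled units) of the 5 enzymes past the threshold in each of the 3 IRE1dn arrays (red) and the 3 ctrl arrays (blue), with the group mean as a bar and the filter level of 13.0 as a dotted line. CHSY1, NDST1 and PAPSS1 lie higher in all IRE1dn arrays, and CHST11 and UST lie lower in all of them, near the filter level.

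All 4 linker enzymes on the list were tested and none passed, with 0 of 4 also at an unadjusted limma p under 0.05. B3GALT6, a linker enzyme placed among the further synthesis enzymes, had no probe set with that single symbol, so the linker was not measured in full. XYLT1 and XYLT2 attach the first xylose. XYLT1 had 192, 185 and 178 units in IRE1dn and 155, 295 and 221 in ctrl, where the IRE1dn arrays lay inside the range of the ctrl arrays. It averaged 185 ± 7.41 units in IRE1dn and 224 ± 69.8 in ctrl (SD, n = 3 each), a change of -0.22 (SE 0.23; 95% interval -0.74 to 0.29; limma adjusted p = 0.48). XYLT2 changed by 0.43 (SE 0.25; limma adjusted p = 0.22). B4GALT7, which adds the first galactose, and B3GAT3, which adds the glucuronic acid that completes the linker, changed by -0.25 (0.36) and -0.15 (0.75). For both, a second, dimmer probe set was lower in IRE1dn by more, -0.51 and -0.86.

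None of the 4 tested enzymes that lengthen the heparan chain passed, and none had an unadjusted limma p under 0.05. EXT1 and EXT2 form the heparan sulfate polymerase. EXT1 had 182, 188 and 169 units in IRE1dn and 174, 266 and 229 in ctrl, a change of -0.29 (SE 0.19; 95% interval -0.72 to 0.14; limma adjusted p = 0.27). EXT2 had 179.1, 178.5 and 179.4 units in IRE1dn, against 175, 204 and 244 in ctrl, a change of -0.20 (SE 0.18; limma adjusted p = 0.41). The IRE1dn arrays were nearly equal and lay among the lower ctrl values. A second EXT2 probe set had 56.0, 65.0 and 64.4 units in IRE1dn, against 104, 87.6 and 114 in ctrl, with no overlap and a difference of -0.70, so the probe sets of EXT2 differ in size.

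EXTL3, which starts the heparan chain, had 38.3, 38.6 and 32 units in IRE1dn, against 17.5, 50.6 and 22.7 in ctrl. Ctrl array 2 lay above all IRE1dn arrays and the other ctrl arrays lay below them. EXTL3 changed by 0.38 (SE 0.35; limma adjusted p = 0.43), and by 0.81 without ctrl array 2 (0.045). EXTL2, which can add a hexosamine to the linker, had 252.5, 251 and 256 units in IRE1dn and 238, 163 and 361.5 in ctrl. Its means were 253 ± 2.49 units in IRE1dn and 254 ± 100.3 in ctrl (SD, n = 3 each), with a change of 0.07 (SE 0.26; 95% interval -0.51 to 0.65; limma adjusted p = 0.86). EXTL1, a related transferase, lay below the filter level on every array.

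NDST1 was the only tested heparan enzyme past the threshold. It replaces the acetyl group of glucosamine with sulfate, the first modification of the heparan chain, on which later ones build. It had 100.5, 75.5 and 75.7 units in IRE1dn arrays 1, 2 and 3, against 29.8, 29.8 and 52.6 in ctrl arrays 1, 2 and 3. The groups did not overlap, and ctrl array 3 lay nearest to IRE1dn. NDST1 averaged 83.9 ± 14.4 units in IRE1dn and 37.4 ± 13.1 in ctrl (SD, n = 3 each), or a log2 change of 1.17 (SE 0.26; 95% interval 0.58 to 1.76; limma adjusted p = 0.0087). A second probe set of NDST1 had 13.2, 9.12 and 11.8 units in IRE1dn and 2.81, 8.89 and 18.8 in ctrl, near or below the filter level and overlapping. With the mean of both probe sets the change was 0.77 and did not pass (limma adjusted p = 0.12).

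Later steps of heparan modification did not pass. HS2ST1, which sulfates iduronic acid at position 2, had 80.2, 83.5 and 72.1 units in IRE1dn and 63.5, 62.1 and 68.3 in ctrl. The IRE1dn arrays lay slightly above the ctrl arrays, with a change of 0.27 (SE 0.18; limma adjusted p = 0.27), while 1 of its other 2 probe sets was lower in value (-0.09). GLCE, the epimerase that makes iduronic acid in heparan, changed by -0.24 (SE 0.24; limma adjusted p = 0.47). HS3ST3A1, which adds the rare sulfate at position 3 of glucosamine, had 265, 297 and 381 units in IRE1dn and 354, 275 and 309 in ctrl. Its means were 314 ± 59.7 units in IRE1dn and 313 ± 39.7 in ctrl (SD, n = 3 each), and the 95% interval of its change ran from -0.42 to 0.42 (limma adjusted p = 0.99).

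Of the 10 modifying enzymes of heparan with a probe set, 6 lay below the filter level: NDST3, HS3ST1, HS3ST2, HS3ST3B1, HS6ST1 and SULF1. With EXTL1 and CHST15 they make up the 8 enzymes not tested, whose signals ran from 0.248 to 10.3 units over all 6 arrays. In a limma fit without the filter, 19.1% of all 11963 genes passed. That share includes genes above the filter level, so it is not a like comparison for these 8. Of the 8, 0 passed in that fit and 0 had an unadjusted p under 0.05 (lowest p 0.055). Their changes ran from -0.89 for SULF1, a sulfatase that removes position 6 sulfates outside the cell, to 0.80 for EXTL1. SULF1 had 0.366, 1.46 and 1.36 units in IRE1dn and 5.55, 1.18 and 4.54 in ctrl, and without ctrl array 2 it passed in that fit (-1.29, limma adjusted p = 0.046). Whether such dim transcripts were present was not measured.

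The sulfate donor PAPS is made by PAPSS1 and PAPSS2, and the sugar donors by UGDH, which makes UDP-glucuronic acid, and UXS1, which makes UDP-xylose from it. PAPSS1 had 436.5, 646 and 574 units in IRE1dn arrays 1, 2 and 3, against 233, 282 and 388 in ctrl arrays 1, 2 and 3. The groups did not overlap, although IRE1dn array 1 lay close to ctrl array 3. Its mean was 552 ± 106 units in IRE1dn and 301 ± 78.8 in ctrl (SD, n = 3 each), or a log2 change of 0.88 (SE 0.22; 95% interval 0.38 to 1.38; limma adjusted p = 0.014). The call ended without IRE1dn array 2 (0.76, limma adjusted p = 0.069) and without IRE1dn array 3 (0.85, 0.061).

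PAPSS2 had 425.5, 472 and 511 units in IRE1dn, against 394, 336 and 80.3 in ctrl. No IRE1dn array reached down to the ctrl arrays, but the distance rested mainly on ctrl array 3. The change was 1.08 (SE 0.49; limma adjusted p = 0.11) over all arrays and 0.36 (0.13) without ctrl array 3. UGDH changed by -0.26 (SE 0.21; limma adjusted p = 0.36) and UXS1 by 0.10 (SE 0.22; 0.75), both with overlapping groups.

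Both keratan sulfate sulfotransferases on the list were tested and neither passed. CHST2, which sulfates N-acetylglucosamine, had 90.3, 102 and 122 units in IRE1dn and 94.2, 60.5 and 107 in ctrl. It averaged 105 ± 16.1 units in IRE1dn and 87.1 ± 23.9 in ctrl (SD, n = 3 each), a change of 0.29 (SE 0.24; 95% interval -0.26 to 0.83; limma adjusted p = 0.38). CHST1, which sulfates galactose, had 20.8, 29.5 and 24.9 units in IRE1dn, against 3.93, 7.22 and 26.1 in ctrl. Ctrl arrays 1 and 2 lay below the filter level and ctrl array 3 among the IRE1dn arrays. Its ctrl mean of 12.4 units lay below that level, so it passed the filter through its higher IRE1dn signals. CHST1 changed by 1.24 (SE 0.51; limma adjusted p = 0.085), by 1.90 without ctrl array 3 (0.0022) and by 1.37 with array weights (0.021).

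HAS2, the hyaluronan synthase measured here, had 29.0, 31.0 and 15.7 units in IRE1dn, against 7.79, 28.0 and 7.33 in ctrl. Ctrl array 2 lay among the IRE1dn arrays, and the other ctrl arrays lay below the filter level. On the log2 scale of the filter, the ctrl mean lay below that level too, so HAS2 was tested through its higher IRE1dn signals. HAS2 averaged 25.2 ± 8.33 units in IRE1dn and 14.4 ± 11.8 in ctrl (SD, n = 3 each), a change of 0.92 (SE 0.47; 95% interval -0.13 to 1.98; limma adjusted p = 0.15). Without ctrl array 2 it was 1.48 (limma adjusted p = 0.015).

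**Figure D3:**
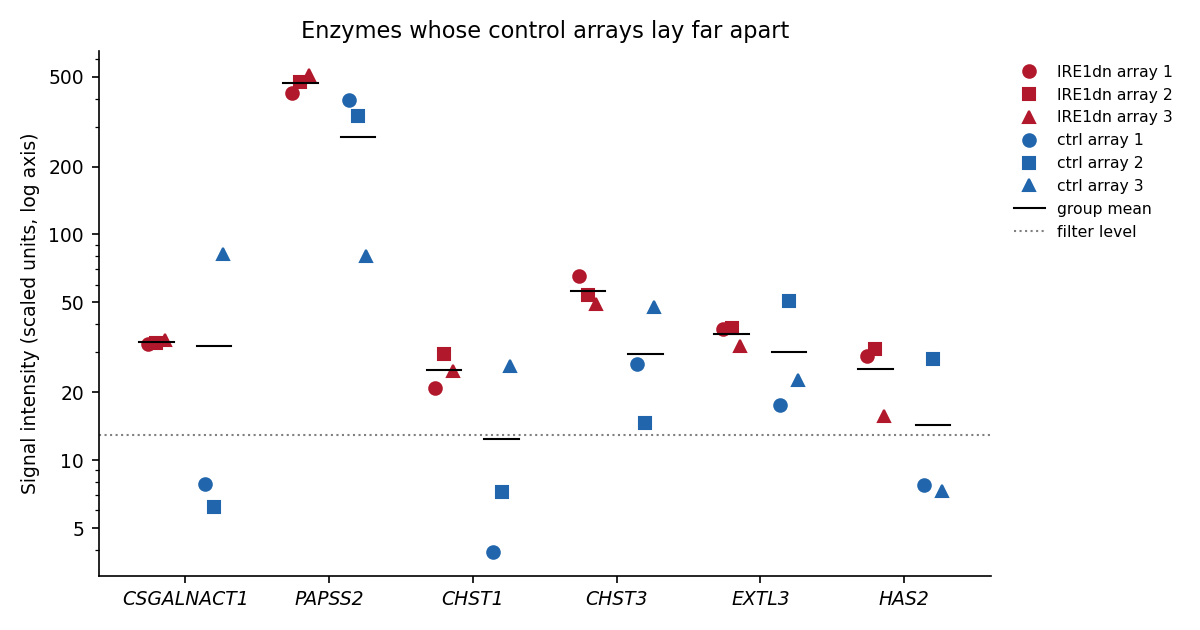
Signal intensity (vertical log axis, scaled units) of 6 enzymes whose change depended on 1 ctrl array, in each IRE1dn array (red) and ctrl array (blue), with group means as bars and the filter level of 13.0 as a dotted line. Ctrl array 3 is the highest ctrl array for CSGALNACT1, CHST1 and CHST3 and the lowest for PAPSS2, and ctrl array 2 is the highest for EXTL3 and HAS2.

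The ctrl arrays varied more than the IRE1dn arrays. The median SD of the 30 enzymes on the log2 scale was 0.19 in IRE1dn and 0.34 in ctrl, and 23 of the 30 had the larger SD in ctrl. Over all genes tested the median SD was 0.17 in IRE1dn and 0.29 in ctrl, with the larger SD in ctrl for 70.9% of them. Without ctrl array 3, 8 enzymes passed the threshold, 6 higher and 2 lower in IRE1dn, and 5 of them also passed with all arrays. In that fit 2671 of the 7178 genes tested passed, against 2468 with all arrays. The array that stood apart was not the same for each enzyme, and its part in the results was not tested. For ACTB, the ratio of 3′ to 5′ signal, a measure of RNA quality, was 1.09, 1.21 and 1.64 in IRE1dn arrays 1, 2 and 3, and 1.21, 1.16 and 1.19 in ctrl arrays 1, 2 and 3. IRE1dn array 3 was the highest. For GAPDH the arrays were closer to each other, with ratios of 0.895, 0.899 and 0.940 in IRE1dn arrays 1, 2 and 3, and 0.923, 0.911 and 0.869 in ctrl arrays 1, 2 and 3.

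Set side by side by chain, 1 of 8 tested heparan sulfate enzymes passed, higher in IRE1dn, or 12.5%, with 7 more below the filter level and a median change of 0.03. Of 11 tested chondroitin and dermatan sulfate enzymes, 1 was higher and 2 were lower in IRE1dn, or 27.3%, with a median of -0.21. The groups lay apart for 2 of the 8 heparan enzymes and for 6 of the 11 chondroitin and dermatan enzymes, 3 in each direction, beside 50.2% of all genes tested, so the second count is near that share. HAS2, the single hyaluronan synthase, did not pass. Both shares were below the 34.4% of all genes, and the difference between the chains was not tested. The heparan median was -0.12 without ctrl array 2 and 0.13 without ctrl array 3. For chondroitin and dermatan it stayed between -0.28 and -0.14 in every alternative.

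Lists of other glycosaminoglycan genes were read from the same limma fit, in which 34.4% of all genes tested passed. Of 17 further synthesis enzymes, 4 had a probe set and only FAM20B, the kinase that phosphorylates the linker xylose, was tested (0.20, limma adjusted p = 0.50). Of 15 genes that supply precursors, 8 had a probe set and 6 were tested. All 6 passed, 4 higher and 2 lower in IRE1dn, where 17.9% of all genes tested were higher and 16.5% lower. UAP1, which makes UDP-N-acetylglucosamine, had 620, 643 and 666 units in IRE1dn, against 233, 318 and 260 in ctrl (1.26, SE 0.16; limma adjusted p = 0.00065). UGP2, which makes UDP-glucose, had 738.5, 869 and 925 units in IRE1dn, against 520.3, 355 and 413 in ctrl (0.98, SE 0.18; 0.0034). Every IRE1dn array of both genes lay above every ctrl array. The sulfate transporter SLC26A2 and the nucleotide sugar transporter SLC35D1 rose by 0.77 (limma adjusted p = 0.016) and 0.72 (0.025).

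SLC35D2, another nucleotide sugar transporter, fell in IRE1dn. It had 20.9, 23.7 and 43.7 units in IRE1dn, against 160.2, 135 and 106 in ctrl, with no overlap (-2.17, SE 0.29; limma adjusted p = 0.00073). GFPT1, which starts hexosamine synthesis, fell by 0.79 (limma adjusted p = 0.017). The calls of SLC26A2, SLC35D1 and GFPT1 ended without IRE1dn array 3 (limma adjusted p = 0.075, 0.11 and 0.082). Those of SLC26A2 and SLC35D1 also ended without IRE1dn array 2 (0.089 and 0.090), and that of SLC35D1 without ctrl array 1 (0.053) and with the mean of its probe sets (0.091).

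Of 20 genes for the breakdown of these chains, 15 had a probe set and 13 were tested. Of the 13, 7 were higher and 0 lower in IRE1dn at the threshold, beside 17.9% higher and 16.5% lower among all genes tested. Their median change was 0.51, and 1, HYAL2, was lower at an unadjusted limma p under 0.05. CEMIP, which takes part in hyaluronan breakdown, had 232, 219.7 and 242 units in IRE1dn, against 45.6, 4.38 and 47.6 in ctrl. IRE1dn lay far above, and ctrl array 2 lay below the filter level (3.26, SE 0.66; limma adjusted p = 0.0053; 2.27 without ctrl array 2). CEMIP2, a cell surface hyaluronidase, rose by 1.198 (limma adjusted p = 0.0093) and the lysosomal heparan enzyme HGSNAT by 1.09 (0.0012). The lysosomal enzymes IDUA, GUSB and HEXA rose by 0.95, 0.71 and 0.60 (limma adjusted p = 0.025, 0.021 and 0.022). Each of these last calls ended without 3 of the 6 arrays in turn (limma adjusted p of 0.050 to 0.11). That of IDUA also ended with no filter (0.061) and with array weights (0.058), and that of HEXA with the mean of its probe sets (0.20). With a pseudocount of 16, CEMIP changed by 2.52 and CEMIP2 by 0.77. The list held 3 calls without IRE1dn array 3 and 4 without IRE1dn array 1 or 2.

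Of 33 proteoglycan core proteins, 31 had a probe set and 16 were tested. Of the 16, 7 were higher and 1 lower in IRE1dn, beside 17.9% higher and 16.5% lower among all genes tested. The median change of the 16 was 0.32. The basement membrane proteoglycans HSPG2 and AGRN, both carriers of heparan sulfate, rose by 4.32 and 1.92, and the cell surface heparan carriers SDC2 and GPC1 by 2.41 and 1.63 (limma adjusted p of 0.0046 or lower). SDC2 had 511, 515 and 525 units in IRE1dn, against 86.5, 43.2 and 235 in ctrl, and changed by 3.04 without ctrl array 3. DCN, a carrier of chondroitin or dermatan sulfate, and LUM, a carrier of keratan sulfate, rose by 4.28 and 5.02. DCN had ctrl signals of 10.9, 13.4 and 14.9 units, near the filter level, and changed by 2.65 without _x_at and _s_at probe sets. AGRN changed by 1.17 with the mean of its probe sets. The ctrl arrays of HSPG2 all lay below the filter level, so it was tested only through its IRE1dn signals. With a pseudocount of 16 its change was 2.56. The count of 7 higher thus depends in part on HSPG2 and on DCN, which were near or below that level in ctrl. LUM changed by 4.30 without ctrl array 2 and 5.72 without ctrl array 3. The core protein that was lower was APLP2 (-0.98, limma adjusted p = 0.029), whose call ended without IRE1dn array 2 or 3 or ctrl array 2 or 3 (0.054 to 0.11) and with other probe sets (0.14). Of 13 hyaluronan binding genes, 5 were tested, and 0 were higher, also at an unadjusted limma p under 0.05. Of the 5, 2 were lower, or 40%, beside 16.5% of all genes tested. These were the hyaluronan receptor HMMR, by -0.80 (limma adjusted p = 0.0038), and TNFAIP6, which modifies hyaluronan, by -1.10 (0.022). TNFAIP6 had 7.67, 14.05 and 8.94 units in IRE1dn, against 18.9, 22.1 and 30.2 in ctrl. Its IRE1dn mean of 10.2 units lay below the filter level, so it was tested only through its higher ctrl signals. Its place in the count of 2 is therefore no support for that share. The call of TNFAIP6 ended without IRE1dn array 1 or 3 or ctrl array 3 (0.078, 0.080 and 0.054) and in 2 other settings, and its change was -0.60 with a pseudocount of 16. CD44, the main hyaluronan receptor, had 1450, 1711 and 1845 units in IRE1dn and 1634, 1673 and 1681 in ctrl, with no shift in its mean (limma adjusted p = 0.99; 95% interval -0.31 to 0.30).

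**Figure D4:**
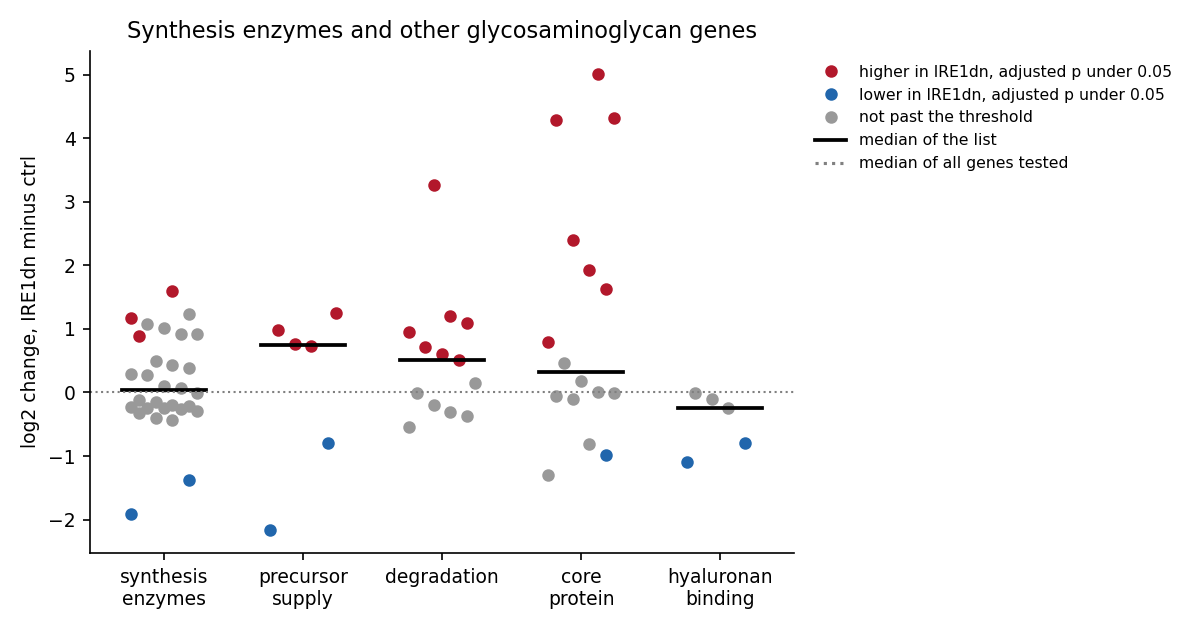
Log2 change, IRE1dn minus ctrl (vertical axis), of each tested gene in the 30 synthesis enzymes and in 4 other glycosaminoglycan lists, with the median of each list as a bar and that of all genes tested (0.01) as a dotted line. Red and blue points passed the threshold. The enzymes span -1.91 to 1.59, while core proteins reach 5.02.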

How the data were processed

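The deposited values are linear signal intensities of 22277 probe sets per array, scaled by the authors to a common trimmed mean (100.03 units, trimming 2% at each end), so a change common to every transcript cannot be seen. The submitters' processing notes name GCOS 1.2. How probes were summarised and background removed is not given in the sources used here. Dim intensities may be mostly background.

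Symbols came from the platform annotation, updated by gene identifier to RefSeq GRCh38.p14 (19052 of 19064 probe sets with 1 symbol matched, and 1043 with several symbols were not used). Per gene, the brightest probe set by mean log2(signal + 1.75) was used, 1.75 being the 20th percentile of all values. Genes above the 40th percentile of means were tested with limma 3.58.1 in R 4.3.3 (lmFit, eBayes with an intensity trend, 6 arrays, two-sided, Benjamini-Hochberg), a procedure checked on simulated data. In those simulations 4% of log2 changes of 0.5, 42.8% of changes of 1.0 and 86.4% of changes of 2.0 were recovered. A change of 0.5 or less that did not pass is therefore not shown to be absent. Far fewer genes were changed there than passed here, so recovery in these data may differ. The number of arrays limits the precision.

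The enzymes and the other lists were chosen with earlier results of these data known. Enzymes past the threshold, and the brightest in each role, were described in full. Of each other list, up to 6 genes past the threshold with the largest changes were named. Genes named beyond this (HYAL2, FAM20B, CD44, APLP2) were chosen after their values were seen. Alternatives varied the pseudocount, filter, scaling, probe set choice, variance model, array weights, replicate block and arrays included. Same-numbered arrays of the groups had correlated deviations of -0.102, 0.0609 and 0.0247, so the numbers were not treated as pairs.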

Additional observations from a re-analysis of the deposited data

How the results depend on the processing

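Of the 633 comparisons between a single enzyme's main result and an alternative, 618 kept their side of the threshold, 12 moved past it and 3 moved back, and no called change reversed. The share that kept its side is no measure of robustness, because some comparisons could hardly change. For the 8 enzymes below the filter level, the main result is already the fit without the filter, and the filter alternatives repeat it. For enzymes with 1 probe set, the probe set alternatives use the same signals. The count of 5 enzymes past the threshold was 2 with a filter at the 60th percentile, which tested 17 of them and left out NDST1, CHST11 and UST, so that 0 were lower in IRE1dn. With array weights it was 8, 6 of them higher. Leaving out each array in turn gave 4 to 8 enzymes, 2 to 6 higher and 2 to 3 lower in IRE1dn, and 0 to 1 among the 8 below the filter level. It gave 1446 to 2671 of all genes, 739 to 1416 higher and 707 to 1255 lower, with the lowest counts without IRE1dn array 2. The same alternatives gave 3 to 6 precursor supply genes, 3 to 7 breakdown genes and 1 to 2 hyaluronan binding genes, the last also 1 with the 60th percentile filter and 1 with array weights. Of the further synthesis enzymes 1 passed with the mean of probe sets and 1 without _x_at and _s_at probe sets. With the replicate number as a replicate block, 2276 genes and the same 5 enzymes passed, so it changed no call among them. The heparan median was -0.03 with equal array medians. Quantile normalization turned the sign of 1 enzyme, HS3ST3A1, and moved no enzyme by more than 0.09. Fewer arrays alone can end a call, and signals near the filter level give imprecise ratios.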

Other observations

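In the limma fit without the filter, 19.1% of all genes passed, a share that includes brighter genes. Of the other glycosaminoglycan lists, 15 core proteins and 8 hyaluronan binding genes lay below the filter level. So did 3 further synthesis enzymes, 2 precursor supply genes and 2 breakdown genes. Of all these, 3 passed in that fit. They were chosen after their values were seen, and the size of each change depends on the pseudocount: with a pseudocount of 16 it was 1.91 for SDC3, 0.67 for BGN and 0.36 for HAPLN1. SDC3, a cell surface carrier of heparan sulfate, had 74.2, 41.4 and 43.9 units in IRE1dn, against 1.43, 3.52 and 1.10 in ctrl (log2 change 3.87, SE 0.39; limma adjusted p = 0.00045). All IRE1dn arrays lay above the filter level and all ctrl arrays below it. BGN, a small chondroitin or dermatan sulfate proteoglycan, had 13.1, 14.7 and 12.7 units in IRE1dn, against 4.50, 2.96 and 0.256 in ctrl (1.96, SE 0.46; limma adjusted p = 0.017), and its call ended without any 1 of the IRE1dn arrays (0.052 to 0.066). HAPLN1, which links hyaluronan to proteoglycans, had 7.71, 4.90 and 4.61 units in IRE1dn, against 0.891, 0.792 and 1.16 in ctrl, all below the filter level (1.45, SE 0.31; limma adjusted p = 0.013, or 0.052 without IRE1dn array 1).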
